A study of Mus musculus with 8 samples.

Results

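The expression of 10 macrophage marker genes was examined in *iMLL-AF9* mouse leukemic cells treated with the PHD inhibitor IOX5 or with DMSO. The genes were *Csf1r*, *Adgre1*, *Mrc1*, *C5ar1*, *Cd14*, *Fcgr1*, *Fcgr3*, *Cd68*, *Lyz2* and *Mmp12*, taken as the rows of the count tables whose Ensembl identifiers carry these symbols in GENCODE M21. They are 10 of 54838 genes listed, and all 10 passed the filter on low counts that kept 12405 genes for testing. The list was drawn up with earlier results of the IOX5 comparison known, so the differences of these 10 genes between IOX5 and DMSO are given as descriptions. No p is printed for any of them in that comparison, and the counts past a threshold stand beside the share of all genes without being read as evidence.

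RNA-seq was performed on 4 samples treated with IOX5 and 4 treated with DMSO, the solvent control, numbered 1 to 4 in each group. All 8 samples were labeled as leukemic stem cells from bone marrow with the genotype WT, while the design text calls the cells preleukemic. The *iMLL-AF9* cells carry the *MLL-AF9* fusion oncogene as an inducible allele, so DMSO and IOX5 samples share it. Dose, length of treatment, the presence of the inducer doxycycline and what a replicate number stands for are not given in the sources used here, so that p-values measure the spread between these samples, which may be technical.

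Macrophages are phagocytes that can differentiate from monocytes under the control of the growth factor CSF1, which acts through the receptor tyrosine kinase encoded by *Csf1r*. They carry receptors for antibody-coated particles (*Fcgr1*, *Fcgr3*), complement fragments (*C5ar1*), bacterial lipopolysaccharide (*Cd14*) and mannose-rich glycans (*Mrc1*), digest their prey in lysosomes (*Cd68*) and release lysozyme (*Lyz2*) and elastase (*Mmp12*). Several of these genes are also transcribed in monocytes, neutrophils and myeloid progenitors, and *MLL-AF9* leukemias are myelomonocytic. IOX5 inhibits the prolyl hydroxylases that mark HIF-α for destruction, so HIF is stabilized in its presence.

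Promoter sequence was at hand for 7 of the 10 genes in the RefSeq windows of GRCm38.p6, which run from 250 bases before to 50 bases after each start site. The core of the motif of PU.1, the myeloid master regulator encoded by *Spi1*, was searched as GAGGAA on both strands. It was present in the windows of 5 of these 7 genes (*Cd68*, *Fcgr1*, *Fcgr3*, *Mmp12* and *Mrc1*), or in 6 of their 9 windows (some genes have several start sites), against 28.3% of all 32851 windows. The letters ACGTG or GCGTG, the core bound by HIF, were present on either strand in 2 of the 9 windows, both of *Fcgr3*, against 43.8% of all windows. TTGCNNAA, a form of the site of C/EBP factors with 2 bases left open, was found in 4 of the 9 windows, of 3 genes, against 10.8% of all windows. TGANTCA, bound by AP-1, was found in 2 of the 9, of 2 genes, against 7.81%. The 120 bases before the start site are shown for *Mrc1* and *Mmp12*, which were higher with IOX5 within each replicate number, and for *Fcgr1*, which was lower within each, because the window of each of these genes holds the PU.1 core. Sequences are written 5′ to 3′ on the strand of the gene, and capitals mark the match, here in the orientation TTCCTC. They are the plus strand of chr2:14229272-14229391 for *Mrc1*, the plus strand of chr9:7344261-7344380 for *Mmp12* and the minus strand of chr3:96293970-96294089 for *Fcgr1*.
Mrc1: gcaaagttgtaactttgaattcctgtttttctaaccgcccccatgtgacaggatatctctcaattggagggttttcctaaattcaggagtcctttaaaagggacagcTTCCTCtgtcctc
Mmp12: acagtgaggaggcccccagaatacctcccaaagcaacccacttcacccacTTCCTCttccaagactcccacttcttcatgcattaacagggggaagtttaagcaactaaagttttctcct
Fcgr1: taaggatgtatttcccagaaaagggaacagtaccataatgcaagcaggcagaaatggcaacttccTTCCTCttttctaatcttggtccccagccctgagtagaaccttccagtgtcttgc
The match began 13 bases before the start site in *Mrc1*, 70 bases before it in *Mmp12* and 55 bases before it in *Fcgr1*. The same letters thus stood before 2 genes that were higher and 1 that was lower with IOX5. A match describes the sequence and does not show that a factor binds there.

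Reads counted on genes ranged from 12343770 to 14116054 in the DMSO libraries and from 11351507 to 12708888 in the IOX5 libraries. IOX5 replicate 2 stood apart from the others. Its log2 levels lay a root mean square of 0.425 from the mean of its group, against 0.284 to 0.365 in the other 7 libraries, and 4.86% of its reads were not aligned, against 2.98% to 3.70%. Values without this library are therefore given beside those that moved with it. All 7 stem and progenitor markers examined were measured, with a summed level of 836 to 1077 CPM, the reads of a gene per 1000000 reads after TMM scaling, in DMSO and 932 to 1247 CPM in IOX5, from *Myb* at a mean of 378 CPM to *Hoxa10* at 49.8 CPM.

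Markers of the other blood lineages were measured in the same libraries. Their lists were drawn up with earlier results of these data known, so the counts that passed are descriptions. The 11 neutrophil markers, led by *Mpo* with a mean of 2411 CPM and lowest for *Camp* with 4.24 CPM, summed to 4780 to 7552 CPM in DMSO and 5476 to 8431 CPM in IOX5. All 11 had higher means with IOX5, of which 0 passed the test in the fit of treatment alone and 9 passed in the fit that also held the replicate number (the block), where 11.2% of all genes passed as higher. The 8 mast cell and basophil markers, from *Mcpt8* at 134 CPM to *Cma1* at 0.888 CPM, summed to 149 to 571 CPM in DMSO and 182 to 959 CPM in IOX5. Of these, 7 were tested, all higher with IOX5, and 0 passed without and 7 with the block. Dendritic cell markers summed to 4.20 to 7.76 CPM in DMSO and to 10.8, 21.3, 7.66 and 8.76 CPM in IOX5 replicates 1 to 4. Of the 7 genes, *Itgax* was the highest at 6.49 CPM, and 5 were under 1 CPM in every library (*Siglech*, *Xcr1*, *Clec9a*, *Cd209a* and *Ccr7*). The other 2 genes were both higher with IOX5, and 0 passed without and 2 with the block. Megakaryocyte markers summed to 16.3 to 64.5 CPM in DMSO and 38.9 to 118 CPM in IOX5, with *Itga2b* at 55.3 CPM and *Gp1bb* at 0 reads, and all 4 tested genes were higher with IOX5, of which 0 passed without and 3 with the block. Of the 7 stem and progenitor markers, 5 were higher and 2 lower with IOX5, and 0 passed without the block and 4 passed as higher with it. Erythroid markers, led by *Car1* at 3.32 CPM, summed to at most 15.1 CPM and stromal markers, from *Pdgfrb* at 1.51 CPM to *Col1a2* at 0 reads, to at most 5.15 CPM. B cell markers, led by *Cd79a*, summed to at most 0.311 CPM, with *Ms4a1* at 0 reads, and T and NK cell markers, led by *Cd3e*, to at most 0.0812 CPM, with *Cd3g*, *Cd8a*, *Cd4* and *Ncr1* at 0 reads. The part of these other lineages in the differences of the macrophage genes was not tested. In these bulk samples a change in the number of cells that express a gene and a change in its RNA per cell cannot be told apart.

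Levels were compared between the 10 genes per kilobase of annotated exon. *Lyz2* had by far the highest level, with 491 ± 80.4 CPM per kilobase in DMSO (SD, n = 4), followed by *Fcgr3* with 61.8 ± 8.73 and *Cd68* with 34.7 ± 7.46. Among the 12402 genes compared in DMSO, *Lyz2* stood at percentile 99.6, *Fcgr3* at 93.4 and *Cd68* at 86.8. *Csf1r* with 14.4 ± 2.69, *Adgre1* with 13.4 ± 3.21 and *Cd14* with 9.90 ± 0.962 CPM per kilobase formed a middle range in which neighbors overlapped over the 4 DMSO samples. *Fcgr1* followed with 6.17 ± 1.62 CPM per kilobase and overlapped neither neighbor. *Mrc1* with 1.48 ± 0.969, *C5ar1* with 0.980 ± 0.488 and *Mmp12* with 0.833 ± 0.634 CPM per kilobase were the lowest, at percentiles 19.7, 14.6 and 12.8, and each overlapped the next. With the longest transcript in place of all exons, *Mmp12* stood above *C5ar1*.

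With IOX5 the order of the means changed mainly at its lower end. *Lyz2* had 897 ± 380.2, *Fcgr3* 74.4 ± 26.9 and *Cd68* 45.2 ± 22.2 CPM per kilobase, in the same order as in DMSO. The mean of *Adgre1* stood above that of *Csf1r*, with 31.6 ± 14.3 against 18.5 ± 7.76 CPM per kilobase. Their ranges overlapped (20.3 to 52.7 and 9.72 to 28.6). *Mmp12* with 5.54 ± 3.42, *Mrc1* with 5.46 ± 3.29 and *C5ar1* with 4.74 ± 3.75 CPM per kilobase had means above that of *Fcgr1*, the lowest with 3.38 ± 1.45. The ranges of these genes over the 4 IOX5 libraries overlapped. They were 3.39 to 10.6 for *Mmp12*, 2.52 to 9.99 for *Mrc1*, 2.16 to 10.2 for *C5ar1* and 2.01 to 5.25 for *Fcgr1*.

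**Figure D1:**
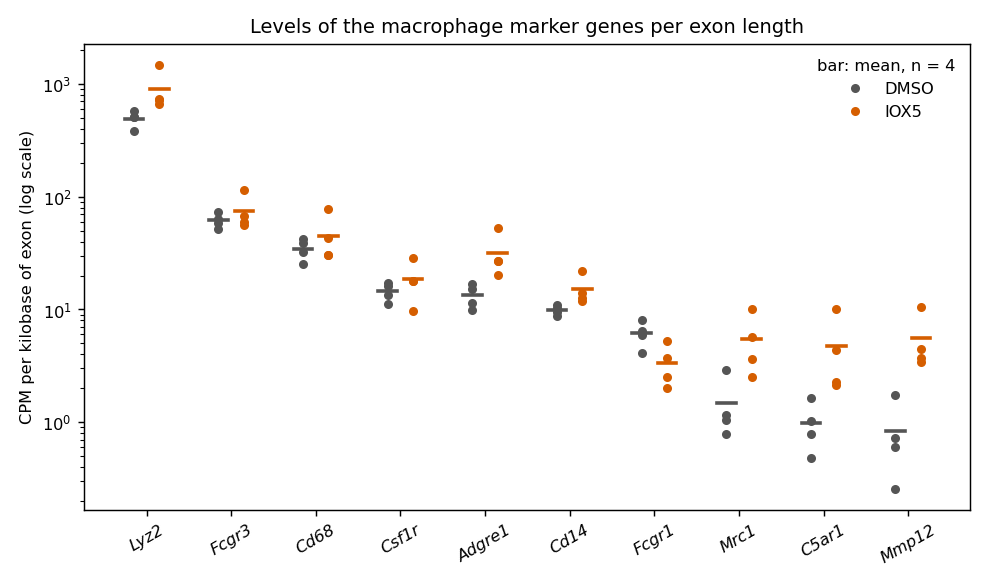
Level of each macrophage marker gene in CPM per kilobase of exon, on a log scale, in the 4 DMSO (gray) and 4 IOX5 (orange) libraries, with bars at the group means. The genes are ordered by their mean in DMSO, from *Lyz2* at 491 to *Mmp12* at 0.833. *Fcgr1*, the seventh in DMSO, has the lowest mean in IOX5, with a range that overlaps those of *Mmp12*, *Mrc1* and *C5ar1*.

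The 10 genes summed to 774 to 1134 CPM in DMSO and to 1279, 2776, 1372 and 1359 CPM in IOX5 replicates 1 to 4. Every IOX5 library was above every DMSO library, and IOX5 replicate 2 held more than any pair of the other IOX5 libraries together. Most of this sum is *Lyz2*.

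The growth factor receptor *Csf1r* and the surface receptor *Adgre1* (F4/80, an adhesion G-protein-coupled receptor) are the classical lineage markers. *Csf1r* (chr18:61100598-61132149, plus strand) had 64.3, 99.0, 77.8 and 92.7 CPM in DMSO replicates 1 to 4 and 56.1, 165, 102 and 103 CPM in IOX5 replicates 1 to 4. The groups overlapped, with the lowest of all values in IOX5 replicate 1 and the highest in IOX5 replicate 2. The log2 fold change from DMSO to IOX5 was 0.36 (SE 0.28), and without IOX5 replicate 2 it was 0.066. Exons of *Csf1r* share 873 bases with *Hmgxb3* on the opposite strand. The 2 genes had 9405 and 7118 reads in all. The strand setting of the counting is not given. *Xist* had 105071 reads and *Tsix*, on its opposite strand, 21, which does not settle it. Counting without regard to strand can also leave few reads on *Tsix*, because reads on shared bases go to neither gene. Whether the counts of *Csf1r* and *Hmgxb3* were told apart by strand is thus not known.

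*Adgre1* (chr17:57358691-57483527, plus strand) had 54.4, 49.6, 32.3 and 36.9 CPM in DMSO replicates 1 to 4 and 87.2, 171, 86.4 and 65.7 CPM in IOX5 replicates 1 to 4. All IOX5 values lay above all DMSO values, and the highest was that of IOX5 replicate 2. Its log2 fold change was 1.24 (SE 0.30), with means of 43.3 ± 10.4 and 102 ± 46.5 CPM (SD, n = 4), and 0.88 without IOX5 replicate 2. *Adgre1* thus had a larger difference than *Csf1r*, and within each replicate number its log2 difference was between 0.68 and 1.78, against −0.20 to 0.74 for *Csf1r*.

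*Mrc1* encodes the mannose receptor CD206, a lectin that takes up glycoproteins. *Mrc1* (chr2:14229392-14332057, plus strand) had 18.6, 7.47, 5.04 and 6.64 CPM in DMSO replicates 1 to 4 and 36.1, 63.7, 23.2 and 16.0 CPM in IOX5 replicates 1 to 4. IOX5 replicate 4 lay below DMSO replicate 1, so the groups overlapped, but within each number the IOX5 library was higher. IOX5 samples had a 3.67-fold higher level (log2 fold change 1.87, SE 0.52), and 1.41 without IOX5 replicate 2.

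*Mmp12* encodes macrophage elastase, a secreted metalloproteinase, and showed the largest difference of the 10 genes. *Mmp12* (chr9:7344381-7369499, plus strand) had 12.6, 5.29, 1.87 and 4.40 CPM in DMSO replicates 1 to 4 and 32.3, 76.8, 24.5 and 26.6 CPM in IOX5 replicates 1 to 4. The lowest IOX5 value was above the highest DMSO value. This was a 6.58-fold difference, 2.72 on the log2 scale (SE 0.57), and 2.19 without IOX5 replicate 2. Within numbers the log2 difference was smallest in number 1, with 1.35, where the DMSO library was the highest of its group, and largest in number 2, with 3.82. *Mmp12* rested on 23 to 865 reads per library.

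*C5ar1* encodes the receptor for the complement fragment C5a. *C5ar1* (chr7:16246743-16259540, minus strand) had 2.61, 4.20, 2.03 and 1.24 CPM in DMSO replicates 1 to 4 and 11.2, 26.1, 5.55 and 5.90 CPM in IOX5 replicates 1 to 4. The groups did not overlap, and the level was 4.81-fold higher with IOX5 (log2 fold change 2.27, SE 0.57), or 1.58 without IOX5 replicate 2. *C5ar1* had the fewest reads of the 10 genes, 16 to 294 per library.

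*Cd14* encodes the co-receptor that hands lipopolysaccharide to the *Tlr4* complex. *Cd14* (chr18:36725067-36726798, minus strand) had 19.1, 17.9, 16.3 and 15.3 CPM in DMSO replicates 1 to 4 and 24.1, 38.0, 20.6 and 21.7 CPM in IOX5 replicates 1 to 4. The DMSO values were close together and all IOX5 values lay above them, 3 of them by a small margin. *Cd14* had a log2 fold change of 0.60 (SE 0.20), and 0.37 without IOX5 replicate 2.

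The Fc receptors did not move together. *Fcgr1* (chr3:96282909-96293969, minus strand), which encodes the high-affinity IgG receptor CD64, had 10.7, 20.9, 15.4 and 16.8 CPM in DMSO replicates 1 to 4 and 5.21, 13.6, 6.49 and 9.71 CPM in IOX5 replicates 1 to 4. It was the only one of the 10 genes with a lower mean in IOX5, and the IOX5 library was the lower one within each number, although the groups overlapped through DMSO replicate 1 and IOX5 replicate 2. Its log2 fold change was −0.87 (SE 0.31), a 1.83-fold higher level in DMSO, and −1.16 without IOX5 replicate 2.

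*Fcgr3* (chr1:171051174-171064935, minus strand), which encodes the low-affinity receptor CD16, had 110.0, 127, 90.6 and 102 CPM in DMSO replicates 1 to 4 and 105, 198, 117 and 96.6 CPM in IOX5 replicates 1 to 4. Only IOX5 replicate 2 stood above all DMSO values. *Fcgr3* had a log2 fold change of 0.27 (SE 0.22), and −0.015 without IOX5 replicate 2. Of the 85-base words in its transcripts, the length of the reads, 4.27% also occur in its paralog *Fcgr2b*.

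*Cd68* and *Lyz2* encode a lysosomal membrane glycoprotein and lysozyme M. *Cd68* (chr11:69664213-69666153, minus strand) had 53.2, 48.8, 32.0 and 40.4 CPM in DMSO replicates 1 to 4 and 53.9, 97.2, 38.1 and 38.1 CPM in IOX5 replicates 1 to 4. As with *Fcgr3*, IOX5 replicate 2 stood well above the rest, which overlapped between the groups. The log2 fold change of *Cd68* was 0.38 (SE 0.31), and −0.0079 without IOX5 replicate 2.

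*Lyz2* (chr10:117277331-117282321, minus strand) had 663, 754, 500.5 and 667 CPM in DMSO replicates 1 to 4 and 869, 1927, 948 and 976 CPM in IOX5 replicates 1 to 4. All IOX5 values lay above all DMSO values. *Lyz2* was thus 1.83-fold higher, a log2 fold change of 0.87 (SE 0.26), and 0.53 without IOX5 replicate 2. Of its 85-base words, 4.38% also occur in *Lyz1*, which had 55 reads in all libraries together against 89817 for *Lyz2*.

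**Figure D2:**
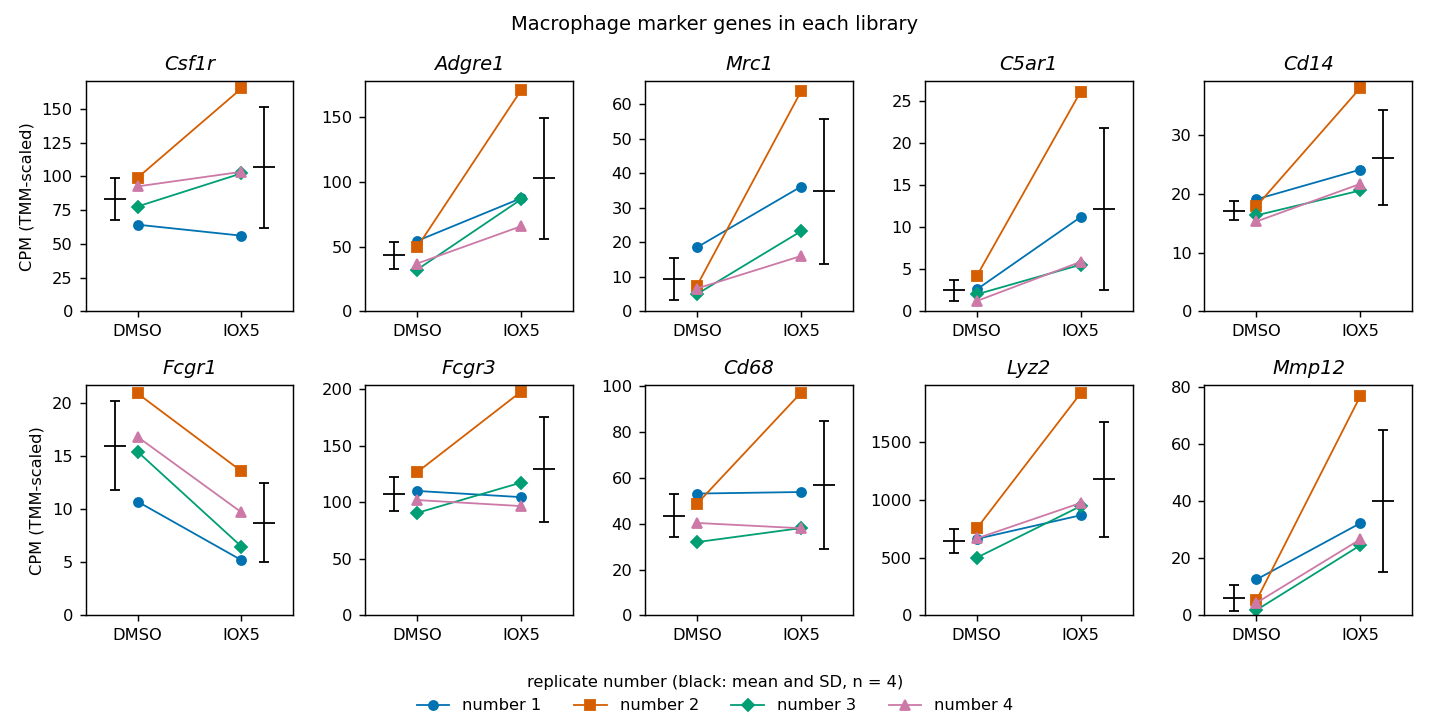
TMM-scaled CPM of each macrophage marker gene in the 4 DMSO and 4 IOX5 libraries, with lines joining libraries of the same replicate number and black bars for mean and SD (n = 4); each axis starts at 0. IOX5 replicate 2 (orange squares) is the highest of the 8 libraries in 9 panels, and in the panel of *Fcgr1* every line falls.

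Across the 10 genes, 9 had a higher and 1 a lower fitted level with IOX5. The median log2 fold change was 0.74, where that of all genes tested was 0.017. Every IOX5 library was above every DMSO library for 5 of the 10 genes (*Mmp12*, *C5ar1*, *Adgre1*, *Cd14* and *Lyz2*), as for 5.98% of all genes tested, and every IOX5 library was below every DMSO library for 0, against 8.3% of all genes. These 5 genes and *Mrc1*, 6 in all, were higher with IOX5 within each of the 4 replicate numbers, as were 21.3% of all genes, and *Fcgr1* was lower within each number, as were 19.8% of all genes. *Csf1r* and *Cd68* were higher in 3 numbers and *Fcgr3* in 2. In edgeR's quasi-likelihood test without a block, 0 of the 10 genes passed an adjusted p of 0.05 in either direction, where 0.774% of all genes passed as higher and 1.25% as lower. At an unadjusted p under 0.05 there were 7 of the 10, against 20.2% of all genes. DESeq2 called 6 as higher (*Mrc1*, *Mmp12*, *C5ar1*, *Adgre1*, *Cd14* and *Lyz2*), where it called 3.94% of all genes as higher, and limma voom called 0, where it called 1.89% of all genes. In the blocked fit, edgeR called the same 6 as higher and *Fcgr1* as lower, where 11.2% of all genes were called as higher and 9.43% as lower. Leaving out IOX5 replicate 2 as well, the same 7 genes were called, against 8.9% and 8.15% of all genes. Because the genes were chosen from this comparison, these counts describe the list and support nothing about it.

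**Figure D3:**
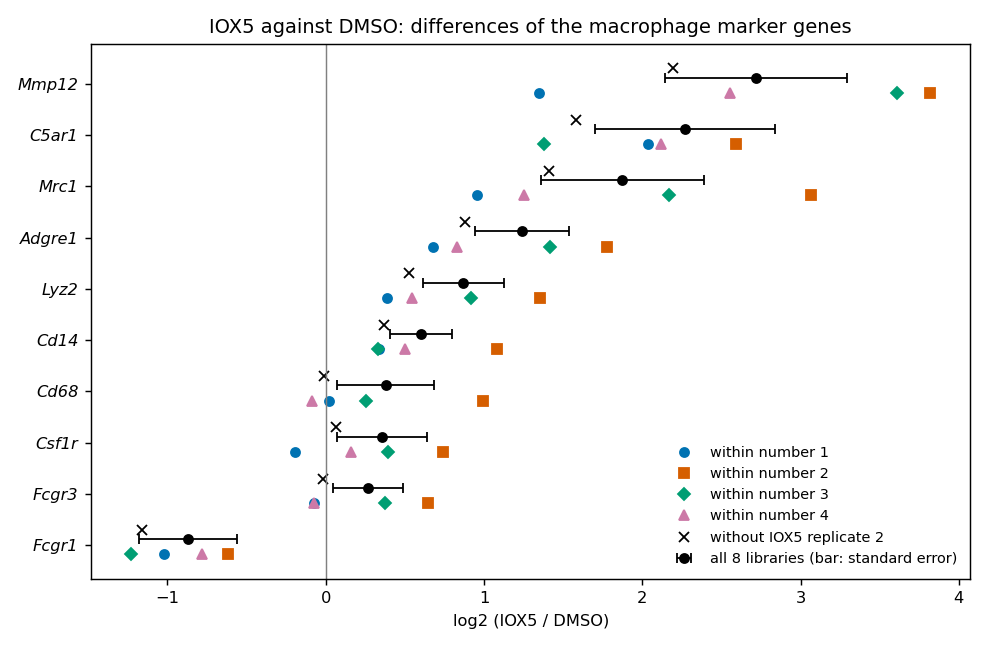
log2 ratio of IOX5 to DMSO for each macrophage marker gene: black circles with standard errors from all 8 libraries, crosses without IOX5 replicate 2, and colored symbols for the difference within each replicate number. The crosses lie to the left of the circles for all 10 genes and at or next to 0 for *Cd68*, *Csf1r* and *Fcgr3*.

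IOX5 replicate 2 had the highest value of the 8 libraries for 9 of the 10 genes, against 21.5% of all genes tested. Without it, 7 genes had a higher and 3 a lower level with IOX5, and the median log2 fold change was 0.45. The 6 genes that were higher within each number stayed between 0.37 and 2.19 on the log2 scale, while *Csf1r*, *Cd68* and *Fcgr3* were within 0.066 of 0. The dependence on IOX5 replicate 2 thus differed between the genes: *Mrc1*, *Mmp12*, *C5ar1*, *Adgre1*, *Cd14* and *Lyz2* were also higher in IOX5 replicates 1, 3 and 4 than in the DMSO library of the same number.

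The replicate number is the other label of the samples, and it was tested as 3 terms together in a fit that also held the treatment. The genes were chosen with results of the IOX5 comparison known, not of this contrast. IOX5 replicate 2 enters both contrasts, so this test is not fully apart from the choice. Of the 10 genes, 9 differed between replicate numbers at an adjusted p under 0.05, against 22.5% of all genes tested. The differences between the highest and the lowest number, averaged over both treatments, ran from 1.43-fold for *Cd14* to 3.68-fold for *C5ar1*. *C5ar1* had the smallest adjusted p (6.3e-05) and was highest in number 2 and lowest in number 4. *Csf1r* differed 2.13-fold (adjusted p = 0.00112) and *Fcgr1* 2.23-fold (adjusted p = 0.00134), both highest in number 2 and lowest in number 1.

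Number 2 was the highest for 9 of the 10 genes and number 1 for *Mrc1*, which differed 2.48-fold between numbers 1 and 4 (adjusted p = 0.0105). The lowest number varied, being number 4 for *Mrc1*, *C5ar1*, *Adgre1*, *Fcgr3* and *Cd14*, number 3 for *Mmp12*, *Cd68* and *Lyz2*, and number 1 for *Csf1r* and *Fcgr1*. *Mmp12* differed 2.89-fold (adjusted p = 0.0282), *Cd68* 1.97-fold (adjusted p = 0.00384), *Adgre1* 1.87-fold (adjusted p = 0.00658), *Lyz2* 1.75-fold (adjusted p = 0.00708) and *Fcgr3* 1.59-fold (adjusted p = 0.00694). *Cd14* did not pass (adjusted p = 0.0706). Number 1 therefore combined high *Mrc1* and *Mmp12* with low *Csf1r* and *Fcgr1*, and the genes of the list did not share a single order of the numbers.

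Part of the difference between numbers rested on IOX5 replicate 2. In the DMSO libraries alone, number 2 was the highest for *Csf1r*, *C5ar1*, *Fcgr1*, *Fcgr3* and *Lyz2*, and number 1 for the other 5 genes. The share of all genes that were highest in number 2 of both groups was 16.7%, and 5 of the 10 genes were. Without IOX5 replicate 2, 7 of the 10 genes differed between numbers, against 22.9% of all genes, and the 3 that did not were *Fcgr3* (adjusted p = 0.113), *Cd14* (adjusted p = 0.398) and *Lyz2* (adjusted p = 0.0585). DESeq2 called 4 of the 10, *Csf1r*, *C5ar1*, *Fcgr1* and *Fcgr3*, against 17.1% of all genes, and limma voom called 9, against 22.3%. Whether a number stands for a mouse, a culture or a day is not given, so donor and day cannot be told apart here.

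**Figure D4:**
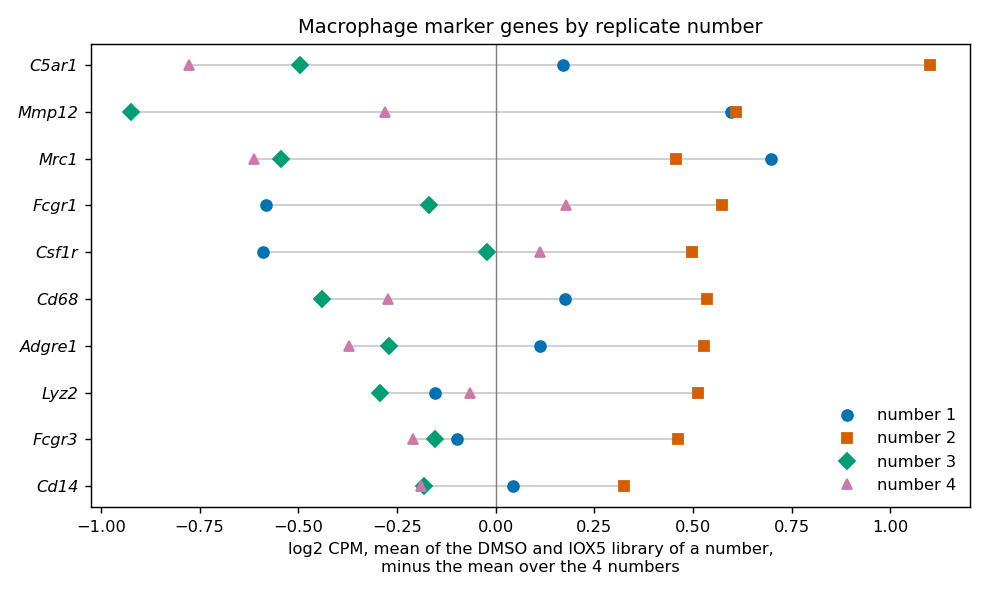
Mean log2 CPM of the DMSO and the IOX5 library of each replicate number, for each macrophage marker gene, relative to the mean over the 4 numbers. Number 2 (orange squares) is the highest for 9 genes and number 1 (blue circles) for *Mrc1*, and number 1 is the lowest for *Csf1r* and *Fcgr1*.

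The mean profile of the 10 genes over the 8 libraries, each gene standardized on the log2 scale, was compared with that of 12036 other genes with a mean of at least 1 CPM. The nearest were *Lgals3* (galectin-3, a lectin abundant in macrophages) with a root mean square difference of 0.0679 SD, *Atp6ap1* (an accessory subunit of the lysosomal proton pump) with 0.116, *Capg* (an actin-capping protein of macrophages) with 0.117, *Psap* (the precursor of the saposins, lysosomal lipid-binding proteins) with 0.118 and *Hist1h1c* (a linker histone) with 0.125. *Lgals3* had 196, 223, 149.9 and 176 CPM in DMSO replicates 1 to 4 and 236, 543, 252 and 237 CPM in IOX5 replicates 1 to 4. *Psap* had 1038, 1256, 849 and 965 CPM in DMSO and 1251, 3107, 1397 and 1348 CPM in IOX5. Both repeated the shape of the list, with IOX5 replicate 2 far above the rest and DMSO replicate 3 lowest. Among the 10 genes themselves, *Lyz2* was nearest to their mean profile, with 22 other genes nearer, followed by *Cd14* with 54 and *Adgre1* with 92. *Csf1r* was far from it, with 1567 genes nearer, and *Fcgr1* the farthest, with 6775.

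Genes that act with these markers were examined in 8 groups by role, 105 genes in all, of which 89 passed the filter and shared no member with the list. These groups were also drawn up with earlier results of the data known. Some of the genes named below were picked for the smallest adjusted p of their group. Counts and p-values of the partner genes therefore describe them and are not independent evidence. Of the 89, 69 had a higher and 20 a lower level with IOX5 (median log2 fold change, 0.30). In edgeR's test without a block 0 passed in either direction, where 0.774% of all genes passed as higher and 1.25% as lower, and 21 had an unadjusted p under 0.05, against 20.2% of all genes. DESeq2 called 6 as higher (*Csf1*, *Tyrobp*, *Fcgrt*, *C5ar2*, *Lgals3* and *Ctsd*), against 3.94% of all genes, and limma voom 0. In the blocked fit, 36 passed as higher and 5 as lower, against 11.2% and 9.43% of all genes. Without IOX5 replicate 2 the median fell to 0.087, and 54 were higher and 35 lower. With the block as well, 29 passed as higher and 6 as lower, against 8.9% and 8.15% of all genes. Of the 89, 58 differed between replicate numbers, against 22.5% of all genes. IOX5 replicate 2 had the highest value of the 8 libraries for 60 of the 89, against 21.5% of all genes. The medians by role given below include this library.

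Among 9 tested genes of growth factor signaling, 5 passed as higher and 1 as lower with the block, and the median log2 fold change was 0.27. *Csf1*, which encodes the main ligand of *Csf1r*, had 40.2, 22.5, 44.8 and 41.3 CPM in DMSO replicates 1 to 4 and 53.3, 60.7, 78.9 and 53.2 CPM in IOX5 replicates 1 to 4. The groups did not overlap, and the highest value was in IOX5 replicate 3, not 2. Its log2 fold change was 0.73 (SE 0.22, edgeR adjusted p = 0.111, with the block 0.00215) and remained 0.73 without IOX5 replicate 2. The other ligand, *Il34*, had 0 reads in all 8 libraries. *Tyrobp* (DAP12, an adaptor that signals with *Csf1r* and many myeloid receptors) had a log2 fold change of 0.45 (adjusted p = 0.15, with the block 0.00184) and 0.29 without IOX5 replicate 2, and *Cbl*, the ubiquitin ligase that ends signaling by *Csf1r*, −0.30 (adjusted p = 0.212, with the block 0.0208).

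Of the 10 Fc receptor partners, 3 passed as higher with the block and the median was 0.16. *Fcer1g*, the signaling chain shared by the activating receptors encoded by *Fcgr1* and *Fcgr3*, had a log2 fold change of 0.33 (SE 0.16, adjusted p = 0.298, with the block 0.0119), the opposite sign to *Fcgr1*, and 0.14 without IOX5 replicate 2. *Fcgr2b*, the inhibitory receptor, had 98.1, 98.3, 164 and 157 CPM in DMSO replicates 1 to 4 and 101, 93.2, 160.4 and 148 CPM in IOX5 replicates 1 to 4, a log2 fold change of −0.042 (adjusted p = 0.942, with the block 0.692). Its values followed the replicate number (adjusted p = 1.7e-05), being higher in numbers 3 and 4 in both groups, unlike those of *Fcgr3*. *Fcgr4* had 0.24 (adjusted p = 0.625) and 0.069 without IOX5 replicate 2. *Fcgrt*, which encodes the neonatal Fc receptor that recycles IgG, had 8.26, 7.78, 3.25 and 4.25 CPM in DMSO and 16.9, 34.1, 8.91 and 9.19 CPM in IOX5, with no overlap, and a log2 fold change of 1.55 (SE 0.49, adjusted p = 0.125, with the block 1.7e-04), or 0.98 without IOX5 replicate 2.

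Of the 12 tested partners of *Cd14* and *C5ar1*, 4 passed as higher and 2 as lower with the block. *C5ar2*, the second receptor of C5a, had 1.98, 2.33, 2.68 and 1.62 CPM in DMSO replicates 1 to 4 and 3.60, 5.95, 3.75 and 3.64 CPM in IOX5 replicates 1 to 4, a log2 fold change of 0.97 (SE 0.25, adjusted p = 0.0773, with the block 0.00475). Without IOX5 replicate 2 its log2 fold change was 0.77. *C3ar1*, the receptor of C3a, had a log2 fold change of 0.79 (SE 0.33, adjusted p = 0.227, with the block 0.00698). The groups did not overlap for either gene, as for *C5ar1*. The Toll-like receptors that work with *Cd14* differed from it. *Tlr4* had a log2 fold change of −0.050 (adjusted p = 0.869, with the block 0.68), or −0.12 without IOX5 replicate 2, and its partner *Ly96* (MD-2) 0.32 (adjusted p = 0.461, with the block 0.272). *Tlr2* had −0.48 (SE 0.23, adjusted p = 0.275, with the block 0.00102) and the adaptor *Myd88* −0.39 (SE 0.18, adjusted p = 0.25, with the block 0.00208), or −0.75 and −0.54 without IOX5 replicate 2, and both were lower with IOX5 within each of the 4 numbers.

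Scavenger and lectin receptors had the highest median of the 8 groups, 0.71 over 11 tested genes, of which 7 passed as higher and 0 as lower with the block. For 10 of these 11 genes the highest value of the 8 libraries was that of IOX5 replicate 2. *Clec4n* (dectin-2, a receptor for fungal mannans) had 44.0, 53.7, 14.3 and 24.8 CPM in DMSO replicates 1 to 4 and 66.7, 235, 41.7 and 49.6 CPM in IOX5 replicates 1 to 4. The log2 fold change was 1.52 (SE 0.61, adjusted p = 0.212, with the block 3.9e-04) and 0.62 without IOX5 replicate 2. *Lgals3* had 0.77 (adjusted p = 0.171, with the block 0.00215) and 0.38 without IOX5 replicate 2. *Clec7a* (dectin-1, a receptor for fungal glucans) had 0.46 (adjusted p = 0.208, with the block 0.037), and without IOX5 replicate 2 its call with the block was lost (0.24, adjusted p = 0.0993). Of the 16 genes of this group, 5 did not pass the filter, among them *Cd163* with 1 read, *Timd4* with 0 and *Marco* with 12 over all 8 libraries, and *Mrc2*, the paralog of *Mrc1*, with 2.

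Among 11 tested genes of secreted products, 4 passed as higher and 0 as lower with the block, and the median was 0.50. *Mmp13*, a collagenase, had 1.77 (SE 0.46, adjusted p = 0.0791, with the block 0.00685) on 115 reads in all, and 1.43 without IOX5 replicate 2. *Chil3*, a chitinase-like protein of myeloid cells, had 0.94 (adjusted p = 0.278, with the block 1.8e-04) and 0.42 without IOX5 replicate 2, and *Apoe*, a lipid carrier, −0.32 (adjusted p = 0.187, with the block 0.0774). Of the 18 genes of this group, 7 did not pass the filter, among them *Arg1* with 17 reads, *Nos2* with 16, *Retnla* with 0 and *Il10* with 3 over all 8 libraries, while *Chil3* had 8255 reads.

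Of 14 genes of the phagosome and lysosome, 8 passed as higher and 0 as lower with the block. *Ctsd*, which encodes the lysosomal protease cathepsin D, had the smallest adjusted p of the 89 genes without a block. It had 371, 375, 324 and 359 CPM in DMSO replicates 1 to 4 and 517, 877, 518 and 519 CPM in IOX5 replicates 1 to 4. The groups did not overlap and, apart from IOX5 replicate 2, the values within each group were close. The log2 fold change was 0.76 (SE 0.17, adjusted p = 0.0584, with the block 4.9e-04), and without IOX5 replicate 2 it was 0.54 (adjusted p = 0.029). *Ncf1*, a subunit of the phagocyte oxidase, had 0.24 (adjusted p = 0.172, with the block 0.03), and without IOX5 replicate 2 its call with the block was lost as well (0.17, adjusted p = 0.084).

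Transcription factors had the lowest median, 0.15 over 13 tested genes, of which 2 passed as higher and 0 as lower with the block. *Spi1*, which encodes PU.1, whose motif is shown above for *Mrc1*, *Mmp12* and *Fcgr1*, had 232, 269, 212 and 222 CPM in DMSO replicates 1 to 4 and 248, 324, 228 and 238 CPM in IOX5 replicates 1 to 4, a log2 fold change of 0.15 (SE 0.12, adjusted p = 0.528, with the block 0.124), or 0.027 without IOX5 replicate 2. *Irf8*, a partner of PU.1 in monocyte fate, had −0.18 (adjusted p = 0.689, with the block 0.182), or −0.38 without that library. *Klf4*, a factor of monocytes, had 0.42 (adjusted p = 0.707), with means of 1.72 CPM in DMSO and 2.32 CPM in IOX5, and −0.35 without IOX5 replicate 2. *Cebpa*, a factor of granulocyte and monocyte progenitors, had 0.50 (adjusted p = 0.299, with the block 4.0e-04), or 0.65 without IOX5 replicate 2. *Tfec* had 0.30 (adjusted p = 0.387, with the block 0.015), or 0.13 without IOX5 replicate 2. *Nr4a1*, needed by patrolling monocytes, had −0.34 (adjusted p = 0.518, with the block 0.219) and −0.53 without that library.

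The 9 tested monocyte genes split, with 3 passing as higher and 2 as lower with the block and a median of 0.17. *Ly6c2*, a surface marker of classical monocytes, had 0.40 (adjusted p = 0.164, with the block 0.00286), or 0.27 without IOX5 replicate 2. *Fn1*, fibronectin, had 169, 149, 42.0 and 61.0 CPM in DMSO replicates 1 to 4 and 52.5, 74.8, 31.4 and 31.0 CPM in IOX5 replicates 1 to 4. It was higher in numbers 1 and 2 in both groups and lower with IOX5 within each number. Its log2 fold change was −1.15 (SE 0.47, adjusted p = 0.216, with the block 3.4e-04), in the direction of *Fcgr1* and opposite to the other 9 markers. Without IOX5 replicate 2 it was −1.46.

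**Figure D5:**
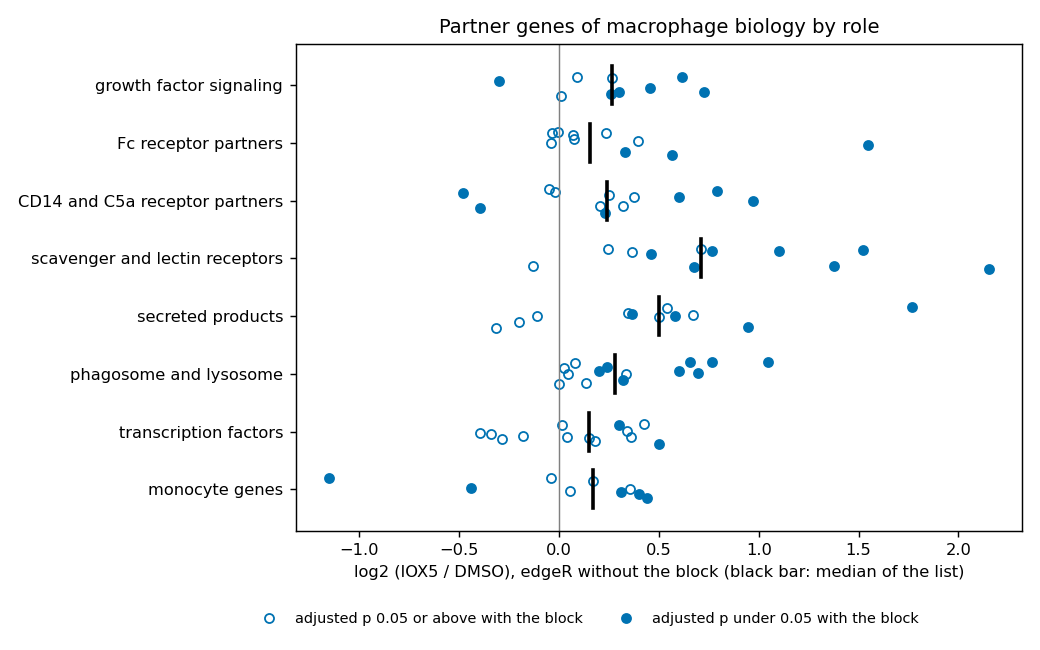
log2 ratio of IOX5 to DMSO, from edgeR without the block, for the 89 tested genes that act with the macrophage markers, by role, with filled circles for genes with an adjusted p under 0.05 in the fit with the block and black bars at the medians. The medians run from 0.15 for transcription factors to 0.71 for scavenger and lectin receptors.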

How the data were processed

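According to the methods and the labels, poly(A) RNA from leukemic cells was made into directional libraries, sequenced as 85-base single-end reads, trimmed with cutadapt 1.18, mapped to GRCm38 with HISAT2 2.2.1 and counted with HTSeq 2.0.1. The deposited values are counts of reads per gene as the authors' counting wrote them, library by library and without normalization. The annotation release and strand setting of the counting are not given in the sources used here. *Xist* had 105071 and *Tsix*, on the opposite strand, 21 reads, which does not settle the strand setting. Of the 54838 genes, 54809 matched GENCODE M21. The 5 summary lines, 20.6% to 22.6% of reads, were left out.

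Genes were filtered with filterByExpr, scaled by TMM and tested with edgeR 4.0.16 in R 4.3.3 by the quasi-likelihood test, with Benjamini-Hochberg adjustment over the 12405 genes and an adjusted p under 0.05. The common biological coefficient of variation was 0.202. Log2 CPM used a prior count of 2. In data simulated from these libraries with 200 of 12405 genes changed by 1 on the log2 scale, this test recovered 200 with 8 false calls, and with the replicate block 200 with 18. The changed genes were drawn from those with higher counts. The data simulated for the test without the block held no differences between replicate numbers. These recoveries therefore do not give the power of the test in these libraries. Deviations from the group means correlated at 0.758, 0.744, 0.732 and 0.636 between the DMSO and IOX5 libraries of numbers 1 to 4. The highest correlation with a library of another number was 0.212, 0.212, 0.685 and 0.685. Numbers 1 and 2 thus pair the samples, while numbers 3 and 4 were not clearly separated from each other. Blocked values are given where they change a call.

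The 10 genes and all gene lists were chosen with earlier results of these data known. The genes named are the 10 markers, 16 partners fixed by role, the 3 of each role group with the smallest adjusted p, the 5 nearest profiles and the extremes of each lineage list, of which some are not reported here; genes below the filter were named after their values were seen. Alternatives were DESeq2 1.42.0, limma 3.58.1 voom, RLE and upper-quartile factors, no filter, at least 10 counts in every sample, thinning, each library left out, the block, the longest transcript as length, and, chosen after seeing the data, the block without IOX5 replicate 2.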

Additional observations from a re-analysis of the deposited data

Results flagged for a closer look

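In groups of 4 libraries, the highest or lowest value was examined for standing apart from the other 3 by a larger share of the group's range than Dixon's 95% critical value. Of 80 groups of named genes and sums, 12 passed it, where chance passes about 5% of groups, and IOX5 replicate 2 was the library in 10. Among the macrophage markers these were *Mmp12* with 76.8 CPM (24.5 to 32.3 CPM in the other IOX5 libraries) and *Lyz2* with 1927 CPM (869 to 976), along with the summed level of the 10 markers at 2776 CPM (1279 to 1372). Among the partner genes they were *Ctsd* with 877 CPM (517 to 519), *Lgals3* with 543 CPM (236 to 252), *Ncf1* with 519 CPM (407 to 423), *Clec4n* with 235 CPM (41.7 to 66.7), *Fcer1g* with 201 CPM (126 to 129), *Clec7a* with 49.4 CPM (32.6 to 34.4) and *C5ar2* with 5.95 CPM (3.60 to 3.75). DMSO replicate 2 was the library in the other 2, with 85.2 CPM for *Tlr2* (58.1 to 61.8 in the other DMSO libraries) and 200.3 CPM for *Tyrobp* (162 to 168). The genes share libraries, so these are not independent observations, and their cause was not tested.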

How the results depend on the processing

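The macrophage markers kept the sign of their log2 fold change under all alternatives, except *Cd68* (−0.0079) and *Fcgr3* (−0.015) without IOX5 replicate 2, whose ranges without 1 library reached 0.53 and 0.38. Their called counts, 0 higher and 0 lower, became 2 higher (*Mmp12* and *Adgre1*) with no filter, 1 (*Mmp12*) with at least 10 counts in every sample and with thinning, 6 with DESeq2, and 6 higher with 1 lower under the replicate block, whether or not IOX5 replicate 2 was included. Leaving out 1 library gave 0 to 1 higher (*Adgre1* without IOX5 replicate 4), 0 lower and a median of 0.45 to 0.83. For the partner genes, 0 became 1 higher (*Ctsd*) with no filter, 6 with DESeq2, 36 higher and 5 lower with the block, and 29 and 6 with the block and without IOX5 replicate 2. Leaving out 1 library gave 0 to 1 higher (*Ctsd* without IOX5 replicate 2, *Cd36* without IOX5 replicate 4), 0 lower and a median of 0.087 (without IOX5 replicate 2) to 0.35. *Fcgr2b*, −0.18 to 0.093 without 1 library, turned to 0.093 and 0.081 without DMSO replicates 3 and 4, and to 0.050 and 0.077 without IOX5 replicates 1 and 2. *Tlr4* (−0.12 to 0.064) turned without IOX5 replicate 4, and *Klf4* (−0.35 to 0.71) without IOX5 replicate 2 and, at −0.27, with the block as well. The adjusted p ran over the alternatives from 1.4e-06 to 0.164 for *Ctsd*, 5.8e-05 to 0.236 for *Csf1*, 0.00475 to 0.211 for *C5ar2*, 2.0e-06 to 0.294 for *Fcgrt*, 1.6e-07 to 0.414 for *Clec4n*, 4.0e-07 to 0.407 for *Fn1* and 2.7e-06 to 0.507 for *Tlr2*. Over all genes, 96 were higher and 155 lower, against 73 lower with no filter, 489 and 602 with DESeq2, 1394 and 1170 with the block, 1117 and 1024 with the block and without IOX5 replicate 2, and 0 to 130 and 0 to 333 without 1 library, with 0 in both directions when any of DMSO replicates 3 and 4 and IOX5 replicate 3 was left out. Replicate numbers separated 2055 to 3893 genes and 7 to 10 markers without 1 library, against 2790 and 9, and 4 markers with DESeq2. The level per kilobase with the longest transcript was 17.7 for *Csf1r* and 79.6 for *Fcgr3*. The median of all genes was 0.017 with TMM, 0.028 with RLE and 0.035 with upper-quartile factors. Beyond the calls given above and in the report, the block changed no call of a named partner gene. The causes of these changes were not tested. Counts as low as 16 reads for *C5ar1* limit the precision of the lowest genes.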
